A study of Mus musculus with 5 samples.

Results

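Developmental transcription factors of the Sox, Pou, Lhx, Meis and Pbx, sine oculis (Six3os1, Six4 and Six6), Otx, Fox, Klf, Tcf, Neurod, Id, Zic, Irx, nuclear receptor (Nr) and Ror families were examined in the retina of Rb-mutant mice. Members were all spots with a single gene symbol in the platform annotation that begins with one of these family names, leaving out Sox9 and Foxn4. This gave 88 spots for 59 genes, of 17328 spots on the array and 7722 spots that carry a single symbol. No spot carried a symbol of the Hox, Nkx, Dlx, Vsx or Neurog families. Of the 88 spots, 62 (48 genes) were measured on at least 4 of the 5 arrays and were tested, 43 of them on all 5 arrays and 19 on 4. The symbol alone chose the members. Foxred2, an oxidoreductase, and Tcf25, a protein of ribosome quality control, came in through their symbols, and Six3os1 is a long non-coding RNA.

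The data came from 5 spotted arrays with 2 colours, each carrying total RNA of mutant mice labelled Rb- in channel 2 and of Wild Type mice in channel 1. The series title names retinal explants, which are retinas kept in culture. The sources used here give no age, strain, allele or Cre driver, and do not say whether arrays came from separate animals, so each p-value reflects variation among these arrays alone, some or all of it possibly technical. Neither RNA has a named dye and the order of the channels in the deposited ratio is not stated, so a positive or negative log2 ratio keeps its deposited sign and is assigned to neither genotype. Because only ratios were used, the level of a gene in either genotype is unknown, and fewer cells of a type cannot be told apart from less RNA per cell. Usable ratios covered 71.8% to 75.9% of spots per array, and 78.4% to 86.4% of member spots. With 5 arrays, variation among them sets the precision.

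Rb is a pocket protein that binds E2F factors and holds back the genes of S phase, and its loss in the retina is known for ectopic division of progenitors and for failed maturation of rods. The factor families described here act around the same decision. SoxC and fork head factors work in dividing progenitors and in newborn neurons, Id proteins block neurogenic bHLH factors by binding their E-protein partners, and LIM-homeodomain, Zic, Irx and Ror factors direct particular retinal cell types. Klf proteins are zinc-finger factors that are prominent in maturing neurons, where several of them regulate neurite growth.

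The members as a whole lay close to the other probes. The median of the tested member probes minus the median of all 10036 tested probes came to 0.16, -0.01, 0.19, -0.09 and 0.00 log2 for arrays 1 to 5, averaging 0.05 ± 0.12 (SD, n = 5). The difference was positive on some arrays and negative on others. Tested probes that carry a single symbol lay at -0.16, 0.03, -0.13, 0.05 and -0.08 log2 from all tested probes. Against these 5822 named probes the member median was 0.11 ± 0.21 (SD, n = 5). Within the 3 arrays scanned at focus position 10 (arrays 1 to 3) it was 0.11 log2 from all tested probes, and within the 2 arrays at focus position 0 (arrays 4 and 5) it was -0.04.

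No member probe passed the test. With limma's moderated test and Benjamini-Hochberg adjustment over all tested probes, 0 of 62 member probes had an adjusted p under 0.05, against 0.0% of all tested probes, and the smallest adjusted p among members was 0.381. By an unadjusted p under 0.05, 3 members were positive (Zic4, Foxo6 and Pbx4), or 4.84% of members against 5.52% of all tested probes and 3.35% of probes with a single symbol. Another 4 were negative (Klf13, Foxo3, Klf9 and Zic2), or 6.45% against 5.9% of all tested probes and 6.18% of probes with a single symbol. These shares lie near the background. Means were negative for 36 member probes and positive for 26, while 6064 of the 10036 tested probes had a negative mean. The mean exceeded 1 log2 in size for 11 members (17.7%, against 18.3% of all tested probes and 13.3% of probes with a single symbol), and the median SD between arrays was 0.84 for members and 0.87 for all tested probes.

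**Figure D1:**
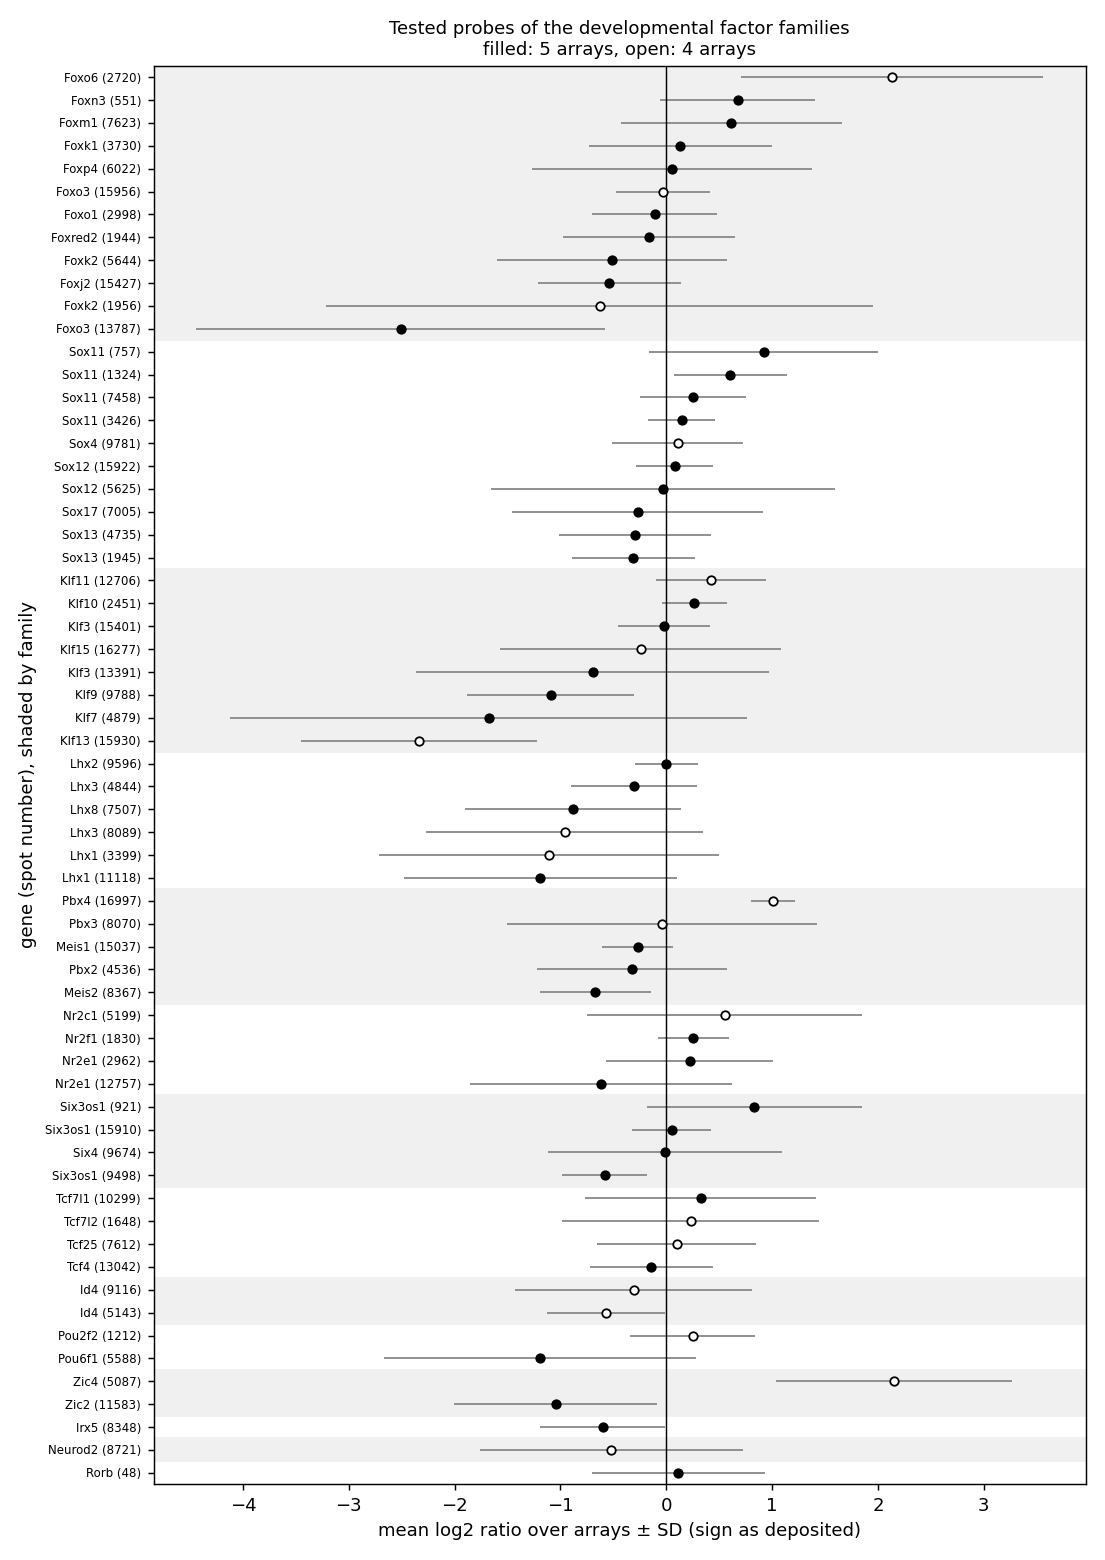
Mean log2 ratio over arrays with its SD for each of the 62 tested member probes, grouped by family from the most to the least probes, with filled points for 5 arrays and open points for 4. Most bars cross 0, and the means run from -2.51 (Foxo3) to 2.15 (Zic4).

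The Sox family held the gene with the most tested probes. Sox11, a SoxC factor of progenitors and newborn neurons, was positive on average on all 4 of its probes. In log2, spot 757 measured 1.32, -0.65, 2.34, 0.77 and 0.82 on arrays 1 to 5, averaging 0.92 ± 1.08 (SD, n = 5). Spot 1324 had 0.85, 0.05, 1.22, 0.86 and 0.04 on arrays 1 to 5, averaging 0.61 ± 0.53 (SD, n = 5), and was above 0 on every array. On the other two spots the ratios were smaller. Spot 7458 had 0.99, -0.30, 0.32, 0.37 and -0.12 on arrays 1 to 5, with a mean of 0.25 ± 0.50 (SD, n = 5), and spot 3426 had 0.52, -0.02, -0.14, 0.45 and -0.09 on arrays 1 to 5, with a mean of 0.14 ± 0.31 (SD, n = 5). Array 1 was positive on all 4 spots and array 4 likewise, while array 2 was negative on 3 of them. None of the 4 passed (limma adjusted p from 0.448 to 0.793). The sign of the 2 smaller means turned negative when arrays were not centred.

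Sox4, another SoxC factor, had 0.73, 0.05, -0.72 and 0.37 on arrays 1, 2, 3 and 5 by its tested probe, averaging 0.11 ± 0.62 (SD, n = 4), whose sign turned negative without centring and without array 1. Its untested spots differed, with -0.75, -1.37 and -1.62 on arrays 2, 4 and 5 on spot 17077 and 2.14 and -0.76 on arrays 1 and 2 on spot 11095. Spot 17077 was negative wherever measured. The lowest mean in the family was that of Sox13, a SoxD factor, at -0.31 ± 0.58 (SD, n = 5). Beside 3972 positive means among all 10036 tested probes, 6 of the 10 tested Sox probes had a positive and 4 a negative mean. Their median minus that of all tested probes was 0.83, 0.01, 0.51, 0.43 and 0.11 log2 on arrays 1 to 5, positive on each, with a mean of 0.38 ± 0.33 (SD, n = 5). Against probes with a single symbol, array 2 was at -0.02. Of these 10 probes 4 are Sox11. Sox2, which maintains progenitors, was on too few arrays to test. Its spot 7461 had 0.88, 1.81 and 1.46 on arrays 1, 2 and 4 and its spot 7311 had 3.42 and 0.74 on arrays 1 and 5, positive wherever measured, and these untested Sox4 and Sox2 values were chosen after they were seen.

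**Figure D2:**
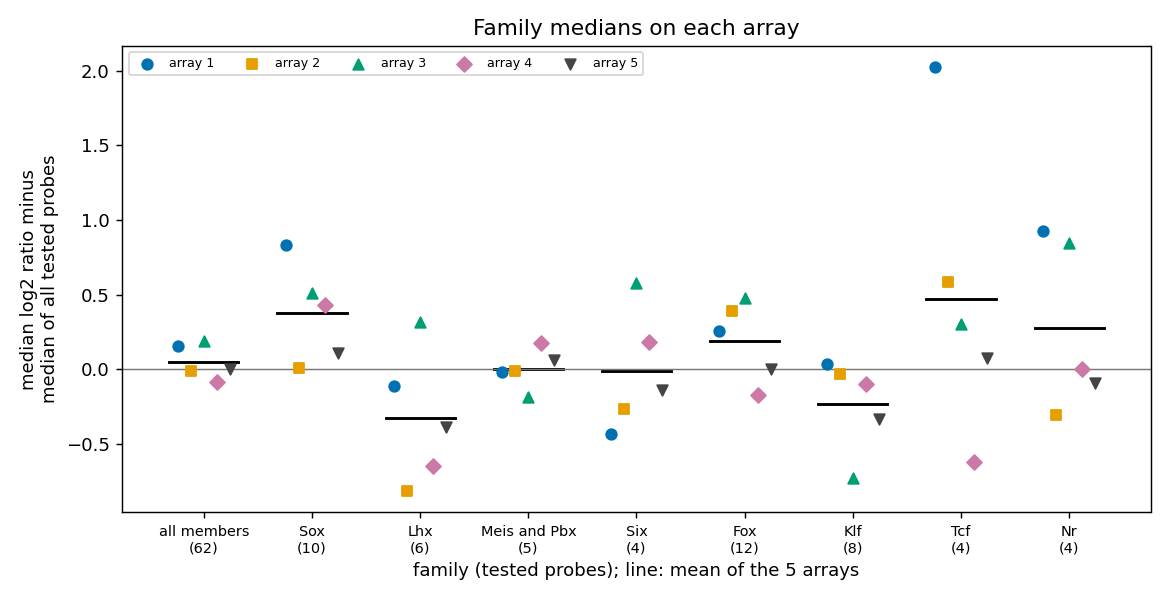
Median log2 ratio of each family with at least 3 tested probes minus the median of all tested probes, with 1 point per array and a line at the mean of the 5 arrays. Sox lies at or above 0 on every array, the other families have arrays on both sides, and Tcf on array 1 (2.02) rests on 3 measured probes.

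Probes with a Fox symbol, fork head factors apart from Foxred2, spread widest, with means from -2.51 to 2.13 among 12 probes. Of these, 5 were positive and 7 negative, Foxred2 (-0.17) among the negative ones. Among all 10036 tested probes 6064 means were negative. Foxo6, a FoxO factor of neurons that responds to insulin signalling, had 0.98, 3.77, 0.89 and 2.89 on arrays 2, 3, 4 and 5, averaging 2.13 ± 1.43 (SD, n = 4) (limma adjusted p = 0.411). All of its 4 measured arrays were positive, with arrays 3 and 5 far above arrays 2 and 4. Foxo3, a FoxO factor linked to stress resistance and quiescence, had -5.78, -1.58, -1.25, -2.73 and -1.19 on arrays 1 to 5 on spot 13787, averaging -2.51 ± 1.93 (SD, n = 5) (limma adjusted p = 0.411). Each array was negative and array 1 was by far the lowest. The other Foxo3 probe, spot 15956, did not share this, with 0.50, -0.22, -0.53 and 0.12 on arrays 2, 3, 4 and 5 and a mean of -0.03 ± 0.44 (SD, n = 4), and the sign of this mean turned positive under 3 alternatives other than leaving out an array.

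Foxm1, which drives genes of G2 and mitosis in dividing cells, had 1.62, 0.43, 1.72, -0.04 and -0.67 on arrays 1 to 5, averaging 0.61 ± 1.04 (SD, n = 5) (limma adjusted p = 0.534). Arrays 1 and 3 stood high and arrays 4 and 5 were at or below 0. Foxn3, a fork head repressor tied to the DNA damage checkpoint, had 1.04, -0.55, 0.63, 0.87 and 1.37 on arrays 1 to 5 on spot 551, averaging 0.67 ± 0.73 (SD, n = 5), positive on 4 of 5 arrays. Its second spot, 8812, was on 3 arrays only and untested, with 4.05, 3.35 and 1.65 on arrays 1, 3 and 5. Foxo1, named after its values were seen, was near 0, at -0.11 ± 0.59 (SD, n = 5). The Fox median minus that of all tested probes was 0.19 ± 0.27 log2 (SD, n = 5), at 0.37 within arrays 1 to 3, -0.09 within arrays 4 and 5, and 0.12 without array 3.

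Klf factors had a negative mean on 6 of 8 probes, beside 6064 of all 10036 tested probes and 3829 of 5822 probes with a single symbol. The Klf median minus that of all tested probes was 0.04, -0.03, -0.73, -0.10 and -0.34 log2 on arrays 1 to 5, averaging -0.23 ± 0.31 (SD, n = 5). Array 3 was lowest, and without it the family value was -0.11. Klf13 had the smallest p of all members, with -3.67, -0.95, -2.39 and -2.33 on arrays 2, 3, 4 and 5, averaging -2.34 ± 1.11 (SD, n = 4) (limma adjusted p = 0.381). It was negative on all 4 measured arrays, with array 2 lowest. Klf9, a close relative induced by thyroid hormone and glucocorticoids that restrains neurite growth, had -2.23, -0.43, -1.60, -0.52 and -0.67 on arrays 1 to 5, averaging -1.09 ± 0.79 (SD, n = 5) (limma adjusted p = 0.432). All 5 arrays were negative, with arrays 1 and 3 lowest. A second Klf9 spot, 5950, was on 3 arrays and untested, with -2.70, -0.03 and -1.68 on arrays 1, 3 and 4. Klf7, which promotes axon growth, had -1.38, -0.04, -5.93, -0.08 and -0.97 on arrays 1 to 5, averaging -1.68 ± 2.44 (SD, n = 5), and was chosen after its values were seen. Array 3 carries this mean, and without it the mean was -0.62. The highest Klf mean was that of Klf11, at 0.42 ± 0.52 (SD, n = 4), whose sign turned negative without centring.

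LIM-homeodomain (Lhx) factors had 5 of 6 negative means, beside 6064 negative means among all 10036 tested probes and 3829 among 5822 probes with a single symbol. The negative means were those of both Lhx1 probes, both Lhx3 probes and Lhx8. The Lhx median minus that of all tested probes was -0.12, -0.82, 0.32, -0.65 and -0.39 log2 on arrays 1 to 5, averaging -0.33 ± 0.45 (SD, n = 5). Lhx1, which specifies horizontal cells in the retina, was negative on average on both tested probes. Spot 11118 had 0.18, -0.79, -0.48, -1.70 and -3.15 on arrays 1 to 5, a mean of -1.19 (n = 5), and spot 3399 had -1.62, -3.15, 0.02 and 0.33 on arrays 1, 2, 4 and 5, averaging -1.11 ± 1.61 (SD, n = 4). The arrays did not match between the probes, since array 5 was lowest on the first and positive on the second. A further spot, 7821, was measured on 2 arrays, with -4.49 and -2.06 on arrays 1 and 4. Lhx2, an eye field and progenitor factor, stayed close to 0 on each array, with -0.43, 0.04, 0.10, 0.38 and -0.08 on arrays 1 to 5 and a mean of 0.00 ± 0.30 (SD, n = 5). Its sign turned with 2 alternatives other than leaving out an array, so no direction is given. Lhx3 had means of -0.30 ± 0.59 (SD, n = 5) and -0.96 ± 1.31 (SD, n = 4) on its 2 probes, named after its values were seen.

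The TALE homeodomain factors Meis and Pbx, which bind DNA as partners, were split. Pbx4 had the smallest spread of any member called by the unadjusted p, with 1.23, 1.12, 0.77 and 0.92 on arrays 1, 2, 3 and 5, averaging 1.01 ± 0.21 (SD, n = 4) (limma adjusted p = 0.414), positive on each of the 4 measured arrays. Meis2, a factor of early eye progenitors, had -1.16, -0.03, -1.26, -0.34 and -0.56 on arrays 1 to 5, averaging -0.67 ± 0.53 (SD, n = 5) (limma adjusted p = 0.437). Each array was negative, and arrays 1 and 3 were lowest. Meis1, with a similar role, had -0.51, -0.60, -0.40, 0.20 and -0.04 on arrays 1 to 5, averaging -0.27 ± 0.34 (SD, n = 5), with array 4 positive. Of the 5 probes 4 had a negative mean, beside 6064 of all 10036 tested probes. The family median minus that of all tested probes was 0.00 ± 0.13 log2 (SD, n = 5).

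Zic factors, zinc-finger proteins of the neural plate and, for Zic2, of retinal ganglion cells with ipsilateral axons, lay on both sides. Zic4 had 1.39, 2.04, 3.76 and 1.41 on arrays 1, 2, 4 and 5, averaging 2.15 ± 1.11 (SD, n = 4) (limma adjusted p = 0.409), and was above 1 log2 on all 4 measured arrays. Zic2 had -1.31, -1.81, -0.05, -2.05 and -0.01 on arrays 1 to 5, averaging -1.05 ± 0.96 (SD, n = 5) (limma adjusted p = 0.432). All its arrays were negative, but arrays 3 and 5 were close to 0. Both genes have a second spot on 3 arrays, untested. The second Zic4 spot, 5304, had 0.18, -1.12 and -0.26 on arrays 3, 4 and 5, with signs opposite to the tested probe on arrays 4 and 5. The second Zic2 spot, 13515, had -2.04, 1.16 and -0.52 on arrays 2, 3 and 5, sharing the negative sign of the tested probe on arrays 2 and 5 and not on array 3.

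Six3os1, a non-coding RNA transcribed next to the eye field gene Six3, had 3 tested probes that disagreed. Spot 921 had -0.86, 1.02, 0.90, 1.21 and 1.87 on arrays 1 to 5, averaging 0.83 ± 1.01 (SD, n = 5). Spot 9498 had -0.86, -0.41, -0.99, 0.02 and -0.66 on arrays 1 to 5, averaging -0.58 ± 0.40 (SD, n = 5). On spot 15910 the values were -0.42, -0.25, 0.41, 0.40 and 0.12 on arrays 1 to 5, averaging 0.05 ± 0.38 (SD, n = 5), whose sign turned without centring, without array 3 and without array 4. Array 1 was negative on all 3, and arrays 2, 3 and 5 were positive on the first and negative on the second. Neither probe of the larger means passed (limma adjusted p = 0.454 and 0.441).

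Among nuclear receptors, Nr2e1, known as Tlx and active in retinal progenitors and Muller glia, also had probes of opposite sign. Spot 2962 had 1.51, -0.54, 0.12, -0.28 and 0.31 on arrays 1 to 5, averaging 0.22 ± 0.79 (SD, n = 5), and spot 12757 had -0.30, -2.38, 1.07, -0.62 and -0.84 on arrays 1 to 5, averaging -0.61 ± 1.24 (SD, n = 5). The sign of the first mean turned without centring and without array 1. Rorb, an orphan receptor that acts upstream of rod fate, had -1.17, 0.30, -0.16, 0.79 and 0.80 on arrays 1 to 5, averaging 0.11 ± 0.82 (SD, n = 5), with arrays 1 and 3 negative and the others positive. Its sign turned negative without centring, without array 4 and without array 5. Nr2c1, an orphan receptor, had the highest mean of the Nr family, 0.55 ± 1.30 (SD, n = 4). That mean rested on array 1 (2.34 log2), without which it was -0.05. The clock repressor Nr1d2, chosen after its values were seen, was measured on 3 arrays and untested, with 3.96, 2.41 and 1.58 on arrays 1, 3 and 4.

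Tcf symbols cover the E protein Tcf4, a bHLH partner, and the Wnt effectors Tcf7l1 and Tcf7l2. Their tested means ran from -0.14 ± 0.58 (SD, n = 5) for Tcf4 to 0.33 ± 1.09 (SD, n = 5) for Tcf7l1, both smaller than the spread between arrays and both changing sign without array 1. The untested Tcf7l1 spot 12454 had -1.46, -1.27 and 1.3 on arrays 1 to 3, opposite in sign to the tested probe on each. The remaining families had 1 or 2 tested probes. Id4, an HLH inhibitor of neurogenic factors, was negative on average on both, with -0.92, -0.44, -1.07 and 0.16 on arrays 1, 3, 4 and 5 on spot 5143 and 1.22, -0.20, -0.90 and -1.35 on arrays 1, 3, 4 and 5 on spot 9116, means of -0.57 and -0.31. Neurod2, a neurogenic bHLH factor, had -1.42, 0.38, 0.71 and -1.75 on arrays 1, 2, 4 and 5, averaging -0.52 ± 1.24 (SD, n = 4). The untested Neurod2 spot 15653 had -0.76 and -0.36 on arrays 2 and 4, where the tested probe was positive. Irx5, required for some cone bipolar cells, had -0.82, -0.26, -1.07, 0.26 and -1.13 on arrays 1 to 5, averaging -0.60 ± 0.59 (SD, n = 5), and was negative on 4 of 5 arrays. The untested Irx5 spot 543 had -2.15, 1.64 and 3.20 on arrays 1, 4 and 5, opposite in sign to the tested probe on array 5. The POU factors Pou6f1 and Pou2f2 had means of -1.20 ± 1.47 (SD, n = 5) and 0.25 ± 0.59 (SD, n = 4). Pou6f1 was below 0 on 4 arrays, from -2.82 to -0.61, and above it on array 5 (0.95). Id4, Neurod2, Irx5 and Pou2f2 were added to the named genes after their values were seen, and none of the tested probes here passed the limma test.

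The remaining 11 genes had no probe on enough arrays. They were Foxd1, Foxl2, Id3, Klf2, Lhx9, Nr1d2, Otx1, Pou3f2, Six6, Sox2 and Sox3. In all 26 spots were untested, 16 of them measured on 3 arrays, 8 on 2, 1 on 1 array and 1 on none. Among the members just outside the limit, the 3 arrays could differ widely, as in Pou3f2 with 3.48, -0.65 and -3.90 on arrays 1, 2 and 5.

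**Figure D3:**
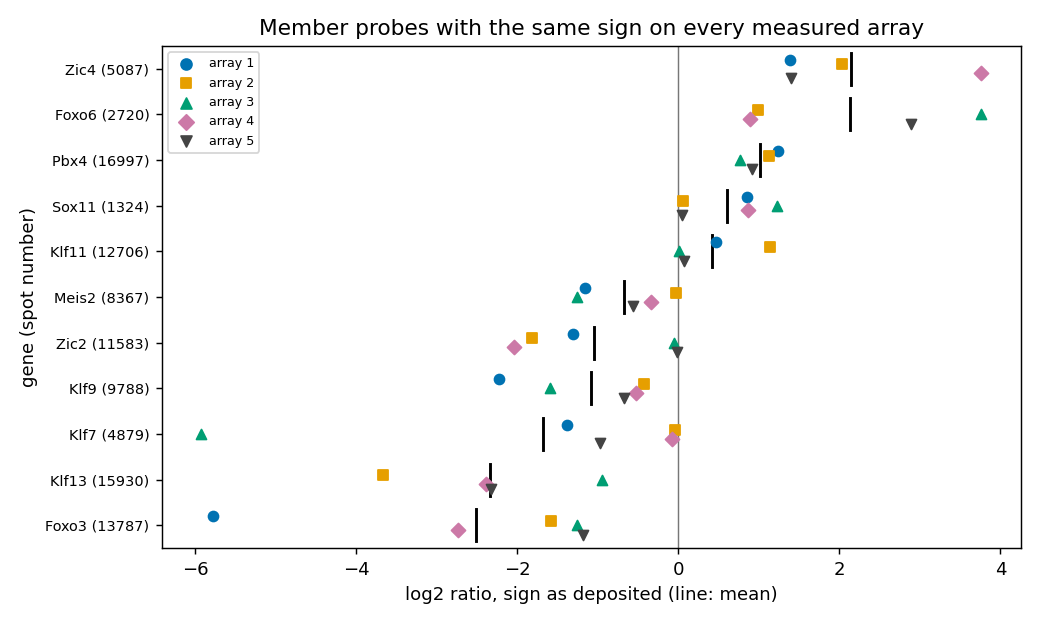
Log2 ratios on single arrays, with a line at the mean, for the 11 member probes that had the same sign on every measured array. Zic4, Foxo6 and Pbx4 lie above 0.7 throughout, several others have arrays close to 0, and Foxo3 and Klf7 each have 1 array below -5.

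The share of members with 1 sign on every array was near that of all tested probes. Of the 62 member probes, 11 had the same sign on every measured array. Of these, 5 were positive (8.06% of members, against 6.5% of all tested probes and 4.64% of probes with a single symbol) and 6 negative (9.68%, against 10.1% and 11.7%). The 5 probes among them that were measured on 4 arrays, Zic4, Foxo6, Pbx4, Klf11 and Klf13, had fewer chances to disagree. All 3 positive members at an unadjusted p under 0.05 belong to these, and among probes on all 5 arrays the count of positive members was 0.

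Where a gene had several tested probes, the probes are parts of the same gene and not replicates. For 11 member genes with at least 2 tested probes, the lowest and highest probe mean lay 0.65 log2 apart in the median, against 0.59 over 989 genes of the array. Among genes with exactly 2 tested probes it was the other way, at 0.26 for 9 member genes against 0.52 for 825 genes. All probes of the gene shared a sign in 8 of 11 member genes, against 54.5% of the 989 genes, and the 3 that did not were Six3os1, Nr2e1 and Sox12. With exactly 2 probes, 7 of 9 member genes shared a sign, against 58.5%. With 11 genes these differences were not tested. The distance was greatest for Foxo3, at 2.48 log2, with both its means negative.

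**Figure D4:**
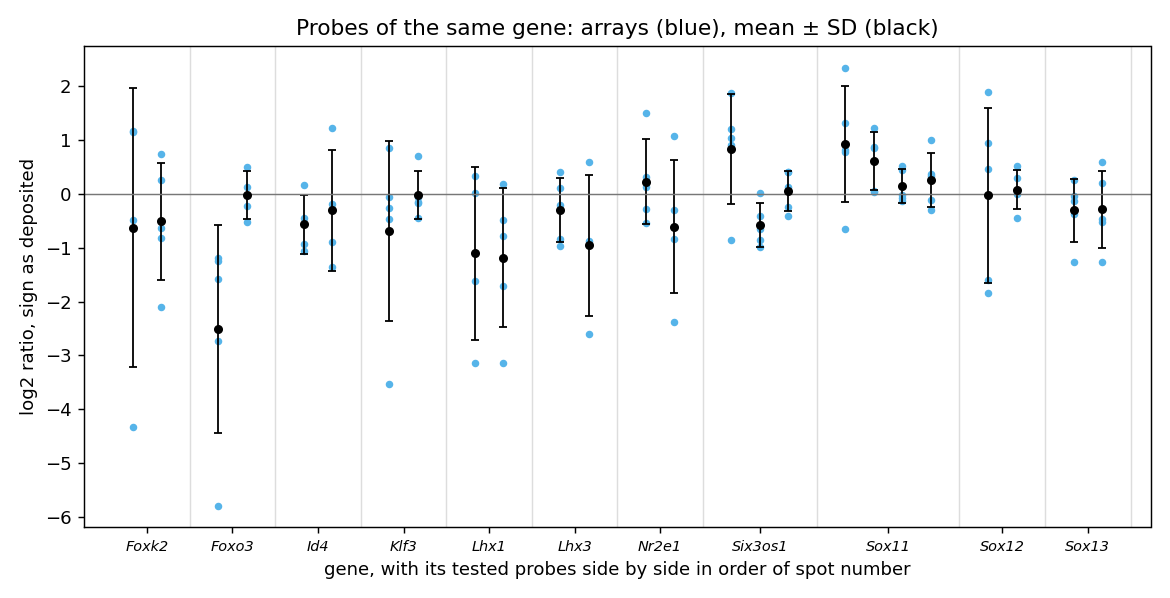
Log2 ratios on single arrays (blue) and mean with SD (black) for the probes of the 11 member genes with at least 2 tested probes, side by side within each gene. The 4 Sox11 probes share a positive mean, the 3 Six3os1 probes do not share a sign, and the 2 Foxo3 probes differ by 2.48 log2.

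Some member probes, picked after their values were seen, had their extremes on the arrays where marker genes of other kinds moved most. No share of members or of all probes with such extremes is given. The spread of all tested probes (scaled median absolute deviation) was 1.14, 0.63, 1.14, 0.74 and 0.79 log2 on arrays 1 to 5. It was widest on arrays 1 and 3, where any probe could more easily have its extremes. Over all tested probes, arrays 1 and 3 were also the most correlated pair (0.342), followed by arrays 2 and 4 (0.307). Over the member probes the most correlated pair was arrays 2 and 4 (0.551), and arrays 1 and 3 had 0.321. The median of 29 rod probes (19 of 25 listed rod genes) minus that of all tested probes was -3.42, 0.11, -3.45, -0.38 and 0.10 log2 on arrays 1 to 5. That of 23 probes of replication and S phase (20 of 38 genes) was 1.71, -0.01, 1.96, 0.72 and -0.09, and that of 25 mitosis probes (20 of 35 genes) was 1.82, 0.12, 1.31, 0.68 and -0.02. Foxm1 and spot 757 of Sox11 had their highest ratios on arrays 1 and 3, where replication and mitosis probes were highest. By their ratios as given above, the other Sox11 probes did not have this order, and spot 3426 was lowest on array 3 (-0.14). That order depends on the scale. Taken minus the median of all tested probes, as the lists are, spots 1324 and 7458 were also highest on arrays 1 and 3. On that scale array 3 was not the lowest of spot 3426. Klf9 (spot 9788) and Meis2 had their lowest on the same arrays 1 and 3, where rod probes were lowest. Rod probes were not alone in this. Medians of cone (-1.1 and -1.34), ganglion cell (-0.63 and -0.999) and bipolar probes (-0.58 and -0.95) were also lowest on arrays 1 and 3. Those of Muller glia and amacrine probes were too, while horizontal cell probes were lowest on arrays 3 and 4. The untested Klf9 spot 5950 was near 0 on array 3 (-0.03). On array 4, where replication and mitosis probes were again above 0, Foxm1 was at -0.04. The part of rods, dividing cells or other cell types in these ratios was not tested. Of the other cell types, 11 ganglion cell probes had a median of -0.40 ± 0.42 log2, 12 Muller glia probes -0.13 ± 0.26, 6 amacrine probes -0.08 ± 0.37, 8 horizontal cell probes -0.04 ± 0.29, 4 bipolar probes -0.40 ± 0.36 and 7 cone probes -0.42 ± 0.80 from all tested probes (SD, n = 5 each). The horizontal cell list holds both Lhx1 probes and the amacrine list the Meis2 probe, which are members, and both lists hold Tfap2b. Lists of pigment epithelium, lens, vessels and microglia had at most 3 tested probes and the blood list had 0.

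**Figure D5:**
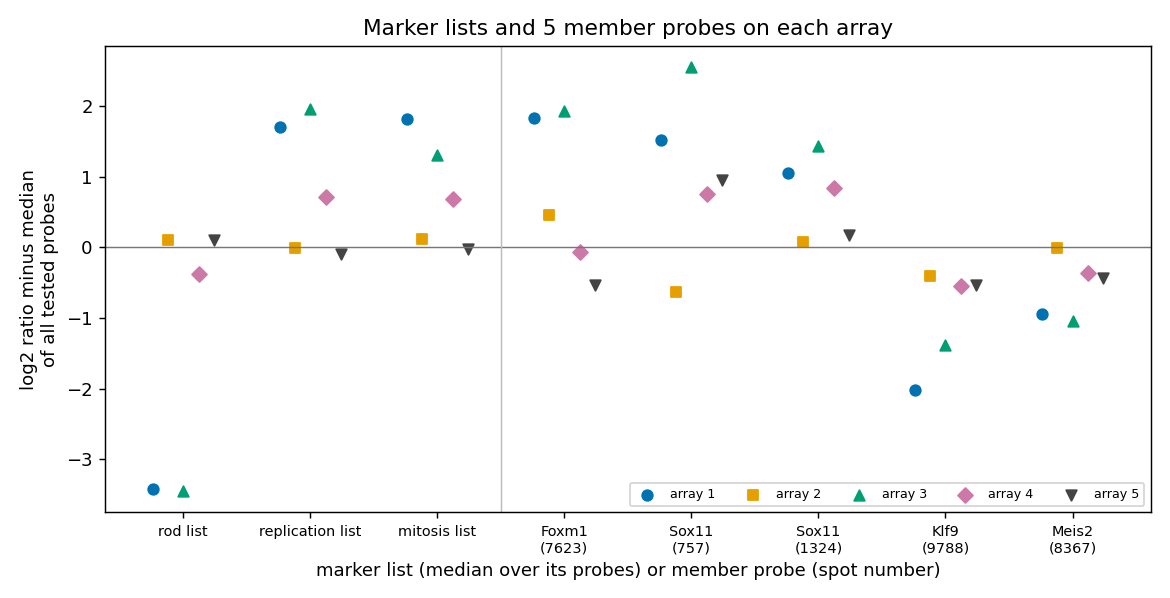
Log2 ratio minus the median of all tested probes on each array, for the medians of the rod, replication and mitosis marker lists at left and for 5 member probes at right that were chosen after their values were seen. Arrays 1 and 3 lie at the ends of the 3 lists and of Foxm1, Klf9 and Meis2.

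No probe among the partners of the families passed adjustment either. Among 30 probes of 21 other retinal fate factors outside the families (28 of 64 listed genes have a spot), 0 were positive and 2 negative at an unadjusted p under 0.05, with 0 past adjustment in limma. The 2 were a probe of Bhlhe41, a circadian bHLH repressor, at -1.40 ± 1.11 (SD, n = 4), and a probe of Zeb1, a zinc-finger repressor of differentiation, at -1.42 ± 1.27 (SD, n = 5). Other probes of these genes had means of -0.59 for Bhlhe41 and 0.30 and 0.76 for Zeb1. Of 19 probes for 13 cofactors (LIM cofactors, Groucho proteins and others), 0 were called in either direction by the unadjusted p. Of 9 probes for 7 nuclear receptors and coregulators under other symbols, 1 was positive, the coactivator Ncoa2 with 0.81, 2.23, 1.61 and 1.37 on arrays 1, 2, 3 and 5. By the same unadjusted p, 5.52% of all tested probes had a positive call and 5.9% a negative call. For the 5822 single-symbol probes the shares were 3.35% and 6.18%. Whether the counts in these small lists differ from such shares was not tested. The medians of these 3 lists from all tested probes were 0.04 ± 0.18, -0.03 ± 0.11 and -0.15 ± 0.52 log2 (SD, n = 5 each).

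Because Rb acts through E2F factors bound at promoters, the promoters of the member genes (250 bases before to 50 after the start, RefSeq, GRCm38.p6) were searched on both strands for the E2F core letters TTGGCGC and TTCGCGC, which overlap no other motif searched. Promoters were given for 48 of the 59 genes. A match was found in 4 of these 48 (8.33%), against 4.47% of all 27025 genes with a promoter. The 4 stretches are shown with the match in capitals and with 20 bases on each side, since they are the member promoters that carry these letters, and Nr2c1 holds the reverse strand.
Lhx3: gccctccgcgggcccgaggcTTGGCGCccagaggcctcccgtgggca
Foxo1: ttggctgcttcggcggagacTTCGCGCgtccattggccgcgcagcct
Nr2c1: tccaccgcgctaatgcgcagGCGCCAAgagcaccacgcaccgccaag
Meis1: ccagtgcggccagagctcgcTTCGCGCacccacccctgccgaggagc
They lie at chr2:26206558-26206604 (- strand, Lhx3), chr3:52268283-52268329 (+ strand, Foxo1), chr10:94147928-94147974 (+ strand, Nr2c1) and chr11:19019038-19019084 (- strand, Meis1). Their probes had means of -0.30 ± 0.59 (SD, n = 5) and -0.96 ± 1.31 (SD, n = 4) for Lhx3, -0.11 ± 0.59 (SD, n = 5) for Foxo1, 0.55 ± 1.30 (SD, n = 4) for Nr2c1 and -0.27 ± 0.34 (SD, n = 5) for Meis1. None of these 5 probes was among the 7 members with an unadjusted p under 0.05 by limma. A match is a description of the letters and not a site.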

How the data were processed

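Per the labels, GenePix Pro 4.1.1.29 quantified scans at 635 and 532 nm, subtracting each spot's local background and applying no normalization. The authors deposited log2 ratios (a scale inferred from the numbers), and the filter behind empty cells is not given in the sources used here. Deposited medians were -0.755, -0.025, -0.715, -0.0575 and -0.742 on arrays 1 to 5. Cells at 16.61, taken as a filler, were set to missing (106 to 141 per array), each array was centred on its median, and the 192 ACTB control spots were left out. Probes on at least 4 of 5 arrays (10036) were tested for a mean of 0 with limma 3.58.1 under R 4.3.3 (functions lmFit and eBayes). Adjustment by Benjamini-Hochberg ran over all of them, at a threshold of 0.05. After this filter the median of all tested probes was -0.20, -0.02, -0.22, 0.02 and -0.13 log2, and lists are given relative to it. The procedure was tested on simulated data, where recovery of changed probes was required only with a spread smaller than in these data. That does not show how large a change the test could find at the real spread. All 88 member spots matched RefSeq by gene identifier. No ratio's sign was turned, and over all tested probes the correlations between pairs of arrays ran from -0.00044 to 0.342.

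Named probes were the 8 with the smallest p on each side, tested probes of 22 genes known in the retina (10 with a spot, 7 tested), and the lowest and highest mean of each family with at least 3 probes. Of the 41 named probes, 9 (Foxo1, Id4, Irx5, Klf7, Lhx3, Neurod2 and Pou2f2) were added after their values were seen, and 3 are further probes of named genes. The members, gene lists and this rule were chosen with earlier results of these data known.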

Additional observations from a re-analysis of the deposited data

Results flagged for a closer look

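The Klf7 probe (spot 4879) had a log2 ratio of -5.93 on array 3. The other 4 arrays ran from -1.38 to -0.04, and the gap between them and array 3 was large for the range of the 5 values. The same comparison of gaps was made for 50 results and singled out 1, where chance alone would give about 2.5. The Klf7 probe had been added to the named probes after its values were seen, so this count cannot be weighed against chance. The cause of the gap was not tested.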

How the results depend on the processing

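Under each of 15 alternatives, 0 of all tested probes passed and 0 member probes passed an adjusted p of 0.05. The 10 alternatives other than leaving out an array were keeping the filler, centring on probes of all 5 arrays, no centring, scaling by the median absolute deviation, quantile normalization, requiring 5 or at least 3 arrays, array weights, an unmoderated test and scan focus position as a term. Centring on probes of all 5 arrays moved the median of all probe means by 0.15 log2 and no centring by -0.46. The members at an unadjusted p under 0.05, 3 positive and 4 negative of 62, became 5 and 3 when centred on probes of all 5 arrays, against 7.72% and 3.62% of all probes. Without centring they were 2 and 14, against 2.69% and 18.3%. Among probes on all 5 arrays they were 0 and 6 of 43, against 3.98% and 8.9%, and among probes on at least 3 they were 6 and 5 of 78, against 6.96% and 4.18%. The unmoderated test gave 2 and 5, against 4.09% and 6.21%, and focus position as a term 2 and 5, against 5.46% and 4.22%. Leaving out each array gave 2 to 4 positive and 4 to 5 negative. The member median stayed between -0.04 and 0.11 log2 of all probes under these alternatives, within each scan focus position and against probes with a single symbol, a comparison added after seeing the data. The choice of centring and the unmoderated test cannot change this difference, so its stability under them carries no information.

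Of 41 named probes, 26 kept the sign of their mean throughout. Requiring 5 or at least 3 arrays and the unmoderated test leave the mean of a probe unchanged, so they could turn no sign. Without centring, means of opposite sign were -0.14 for Klf11, -0.46 for Lhx2, -0.24 for Nr2e1 (spot 2962), -0.14 for Pou2f2, -0.35 for Rorb, -0.41 for Six3os1 (spot 15910), -0.31 and -0.21 for Sox11 (spots 3426 and 7458), -0.45 for Sox4 and -0.13 for Tcf7l1. Centred on probes of all 5 arrays they were 0.044 for Foxo1, 0.092 for Foxo3 (spot 15956) and 0.013 for Tcf4. The same Foxo3 probe had 0.038 with quantile normalization and 0.024 with array weights, and Lhx2 had -0.012 with the filler kept. Leaving out single arrays, signs turned within the ranges -0.28 to 0.11 for Foxo1, -0.21 to 0.13 for Foxo3 (spot 15956), -0.82 to 0.040 for Id4 (spot 9116), -0.094 to 0.11 for Lhx2, -0.047 to 0.99 for Nr2c1, -0.10 to 0.41 for Nr2e1 (spot 2962), -0.0082 to 0.46 for Pou2f2, -0.058 to 0.43 for Rorb, -0.040 to 0.17 for Six3os1 (spot 15910), -0.10 to 0.38 for Sox4, -0.35 to 0.012 for Tcf4 and -0.048 to 0.64 for Tcf7l1. The cause was not tested. Each ratio pairs the mutant and wild-type RNA of an array, and the limma test of its mean used this pairing. All 5 arrays form a single group, so no further pairing was analysed. No intensity was used, so signal over background could not be weighed.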
